A study of Mus musculus with 6 samples.

Results

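The MCM helicase and the genes that load and control it were examined in mouse 2-cell embryos. The 10 genes were taken by symbol from the series' count table, and all 10 were found among its 18660 rows. They are Mcm2, Mcm3, Mcm4, Mcm5, Mcm6 and Mcm7, which encode the subunits of the MCM helicase, together with Mcm10, Cdc6, Cdt1 and Gmnn, which encodes geminin. Embryos were labelled either 5 µM sodium arsenite, a trivalent arsenic salt added to G1-PLUS culture medium, or control (0 µM), and polyadenylated RNA was sequenced in 3 libraries of each. No strain, exposure time or number of embryos per library is labelled. Nor is it labelled whether replicates came from different cultures, and the p-values below measure the library-to-library spread alone, whether biological or technical.

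Before each S phase the origin recognition complex, Cdc6 and Cdt1 load the ring formed by Mcm2 to Mcm7 onto DNA as an inactive double hexamer, a step called licensing. Once S phase begins, Cdc45 and the GINS complex join the ring to make the active helicase, with Mcm10 needed for its activation, and geminin binds Cdt1 so that origins are not licensed again. A cleaving mouse embryo starts with licensing proteins and mRNA stored in the egg, and at the 2-cell stage its RNA is a mixture of what remains of that store and of transcripts of its own genome. E2F factors are known in cultured cells to drive many of these genes as cells enter S phase.

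The starts of the genes whose RNA fell, Mcm3 and Mcm6, are shown with that of Mcm2, a subunit whose RNA did not pass the test. The sequences are RefSeq promoter windows on GRCm38.p6, given 5′ to 3′ on the gene's strand. Each runs from 150 bases before a RefSeq transcript start through the first 50 bases of the transcript. Capitals mark the letters of an E2F motif, searched on both strands as TTTCCCGC, TTTCGCGC, TTTGCCGC or TTTGGCGC.
Mcm3, chr1:20820263-20820462, minus strand: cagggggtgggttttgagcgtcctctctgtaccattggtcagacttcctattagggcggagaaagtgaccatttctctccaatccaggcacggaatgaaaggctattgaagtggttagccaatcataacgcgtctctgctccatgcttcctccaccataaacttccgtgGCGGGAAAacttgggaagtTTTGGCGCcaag
Mcm6, chr1:128359656-128359855, minus strand: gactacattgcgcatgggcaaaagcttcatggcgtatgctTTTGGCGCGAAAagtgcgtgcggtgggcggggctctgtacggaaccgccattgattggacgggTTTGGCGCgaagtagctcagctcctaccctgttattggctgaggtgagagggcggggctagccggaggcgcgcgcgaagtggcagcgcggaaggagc
Mcm2, chr6:88898731-88898930, minus strand: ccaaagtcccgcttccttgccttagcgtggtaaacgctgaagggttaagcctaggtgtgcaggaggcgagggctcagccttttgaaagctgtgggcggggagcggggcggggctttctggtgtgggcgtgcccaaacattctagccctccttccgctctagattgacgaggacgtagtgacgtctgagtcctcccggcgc

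Over whole windows, from 250 bases before to 50 bases from the start, 8 of the 10 genes matched by symbol, with 9 windows, and Mcm4 and Gmnn did not. An E2F motif was present in 6 of the 9 windows, where 2.26% of all 32851 windows held one. Those windows belong to 6 of the 8 genes, namely Mcm3, Mcm5, Mcm6, Mcm7, Cdc6 and Cdt1. Of these, the RNA of Mcm5, Mcm7, Cdc6 and Cdt1 did not pass the test. Mcm2 and Mcm10, which had no match, did not pass either. In Mcm6 the 3 matches lie before the start, and the first 2 overlap. In Mcm3 both matches lie within the first 50 transcribed bases. A CCAAT box was present for 6 of the 8 genes, in 7 of the 9 windows, and in 37.4% of all windows. The GC box GGGCGG was present for 6 of the 8 genes, in 7 of the 9 windows, and in 35.7% of all windows. The CHR letters TTTGAA or TTCGAA were present for 2 of the 8 genes, Mcm2 and Mcm7, in 2 of the 9 windows, and in 19.2% of all windows. Such matches are letters in a window and not evidence of binding.

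Totals per library were 7754037 to 8384712 counts with arsenite and 7827004 to 8515078 in controls, and the 10 genes together took 9750 to 16010 counts of a library. The floor of 3 counts was 0.352 to 0.387 CPM (counts scaled to library size), well under every value of the 10 genes. Of 8 markers of the 2-cell stage, 5 were higher with arsenite and 0 lower in the edgeR test described below, with summed levels of 1388 to 3464 CPM with arsenite and 692 to 923 CPM in controls. Of 20 oocyte markers, 8 of the 18 tested were higher with arsenite and 0 lower, with sums of 11241 to 16868 CPM with arsenite and 7108 to 11374 CPM in controls. Of 10 cumulus and granulosa cell markers, 1 of 4 tested, Cyp11a1, was higher. The 10 summed to 11.8 to 24.6 CPM with arsenite (Has2 and Inhba at 0) and 2.41 to 6.83 CPM in controls (Cyp11a1 and Hsd3b1 at 0). With no counts in any control, Cyp11a1 passed the filter on low counts only through its arsenite libraries. Of 9 tested trophectoderm and inner cell mass markers 1, Gata3, was higher, and the list summed to 73.8 to 155 CPM with arsenite and 93.3 to 143 CPM in controls (Sox17 at 0). The 6 sperm markers, none tested, summed to 0.913 to 6.57 CPM with arsenite and 0.112 to 2.68 CPM in controls (Tnp1, Odf1 and Akap4 at 0). Some listed markers had no row in the count table and are not in these numbers. They were Eif1ad8 and Duxf3 of the 2-cell list and Cdx2 of the trophectoderm and inner cell mass list. Ptx3, Inha, Amh, Fshr and Lhcgr of the cumulus and granulosa list and Tnp2 and Spaca1 of the sperm list were also absent. Over all tested genes 9.43% were called higher with arsenite and 7.26% lower. The part of the cell type markers in the results below was not tested. In bulk RNA fewer cells of a kind and less RNA per cell cannot be told apart.

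Within the MCM ring the subunits moved in different directions. Mcm3 and Mcm6 fell to a little under 0.5 of their control level with arsenite, Mcm4 rose 2.38-fold, and Mcm2, Mcm5 and Mcm7 did not pass the test. None of the 4 loading and control genes, Mcm10, Cdc6, Cdt1 and Gmnn, passed. The test was edgeR's quasi-likelihood test over 12582 genes with Benjamini-Hochberg adjustment, and a gene is called when the adjusted p is under 0.05. Thus 1 of 10 genes rose, where 9.43% of all tested genes did, and 2 of 10 fell, where 7.26% did. Together 3 of 10 were called, against 16.7% of all tested genes, and whether the group differs from that background was not tested. Rises made up 56.5% of all calls, 46.5% with scaling by library totals and 44.0% with length and GC trends removed. The median log2 fold change was −0.38 for the 10 genes and 0.07 for all tested genes.

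**Figure D1:**
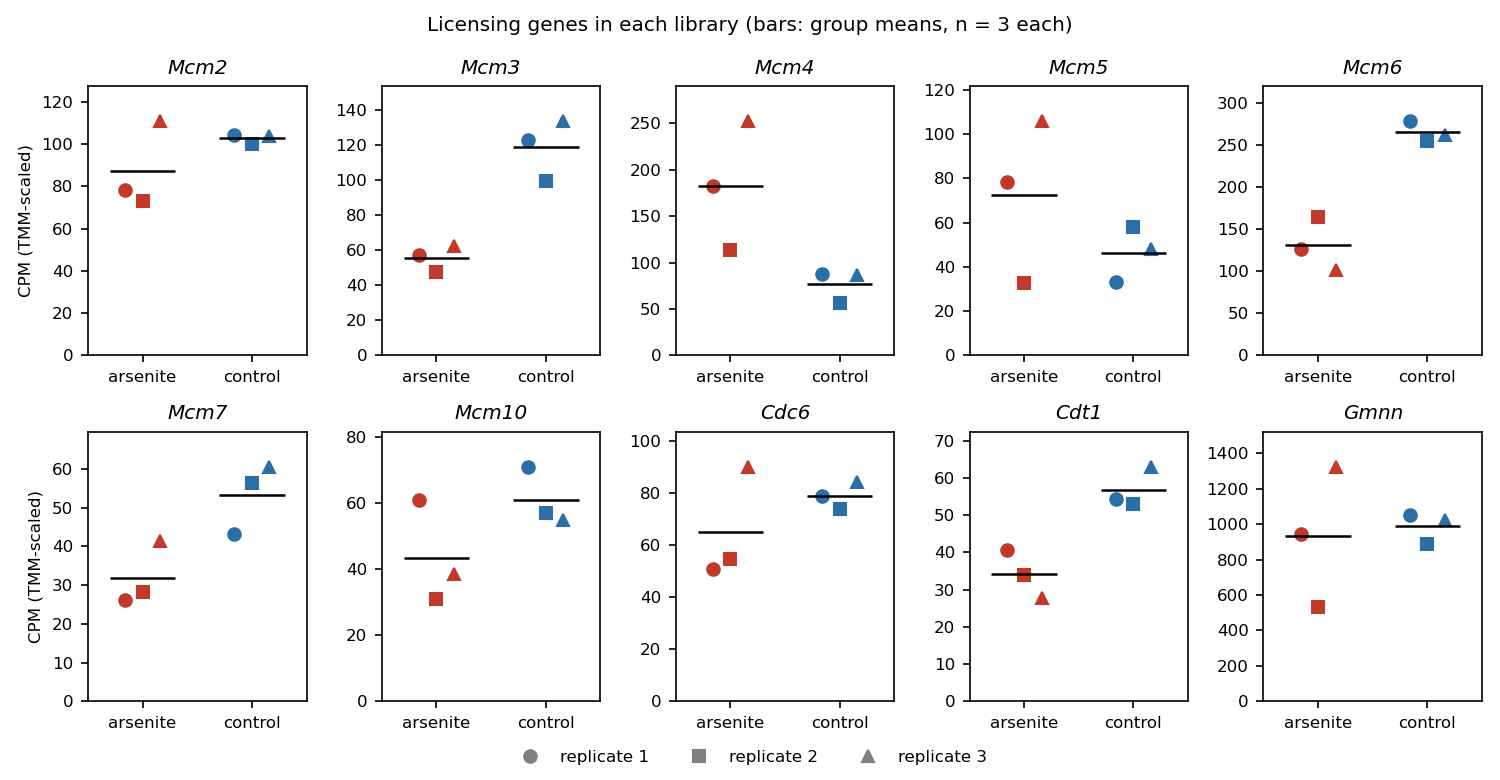
TMM-scaled CPM of the 10 genes in each library, arsenite left of control; each point is a library, its shape the replicate number, and bars are means of 3 libraries. The groups do not overlap for Mcm3, Mcm4, Mcm6, Mcm7 and Cdt1, and the arsenite libraries spread widely for Mcm5 and Gmnn.

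Mcm3 (chromosome 1, 20802968 to 20820312, minus strand, GRCm38, the assembly of mm10) encodes the subunit that in yeast docks on the origin recognition complex and Cdc6 during loading. It had 57.2, 47.7 and 62.6 CPM in arsenite replicates 1, 2 and 3, against 123, 99.5 and 134 CPM in control replicates 1, 2 and 3. All arsenite libraries lay below all controls, and within each group the libraries were close together. The means were 55.8 ± 7.57 CPM with arsenite and 119 ± 17.6 CPM in controls (SD, n = 3 each). The log2 fold change was −1.09 ± 0.29 (SE; adjusted p = 0.0305 by edgeR).

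Mcm6 (chromosome 1, 128331590 to 128359664, minus strand), whose product binds Cdt1 in human cells, had the highest level per length of the 6 subunits in each control. It had 127, 164 and 101 CPM in arsenite replicates 1, 2 and 3, against 278, 255 and 262 CPM in the controls. The groups did not overlap, and the controls differed from each other less than the arsenite libraries did. The means were 131 ± 31.7 CPM with arsenite and 265 ± 12.1 CPM in controls (SD, n = 3 each), so the log2 difference was −1.02 ± 0.28 (SE; adjusted p = 0.0351 by edgeR). A stretch of the Mcm6 transcript of at least 150 bases is at least 95% identical to the gene model Gm15654, which has no row in the table, so reads of that stretch may have been counted for Mcm6 or lost.

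Mcm4 (chromosome 16, 15623897 to 15637400, minus strand) encodes a subunit that the kinase Cdc7 phosphorylates when origins fire. It had 182, 114 and 252 CPM in arsenite replicates 1, 2 and 3, against 87.3, 56.5 and 86.8 CPM in the controls. Each arsenite library lay above each control, and replicate 2 was the lowest of its group in both. The means were 183 ± 69.4 CPM with arsenite and 76.9 ± 17.6 CPM in controls (SD, n = 3 each). The log2 fold change was 1.25 ± 0.35 (SE; adjusted p = 0.0365 by edgeR). With trends on transcript length and GC content removed in each library it was 0.95 (edgeR adjusted p = 0.068), and with that and the replicate number as a block it was 0.88 (edgeR adjusted p = 0.0238).

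Each of these 3 calls was lost when certain libraries were left out. Without arsenite replicate 1, control replicate 1 or control replicate 3, Mcm3 had edgeR adjusted p = 0.0913, 0.0729 and 0.096. Mcm6 lost its call without arsenite replicates 1 or 3 (edgeR adjusted p = 0.118 and 0.0916) and without control replicates 1, 2 or 3 (0.0861, 0.0617 and 0.097). Mcm4 lost its call without arsenite replicates 1 or 3 (edgeR adjusted p = 0.108 and 0.105) and without control replicates 1, 2 or 3 (0.0787, 0.0965 and 0.103). With each of the 6 libraries left out in turn, calls kept or lost, the log2 fold changes were −1.20 to −1.07 for Mcm3, −1.30 to −0.86 for Mcm6 and 0.95 to 1.41 for Mcm4. Those fits hold fewer libraries. With the replicate number as a block, which called 26.0% of all tested genes, Mcm3, Mcm4 and Mcm6 were again the members called.

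**Figure D2:**
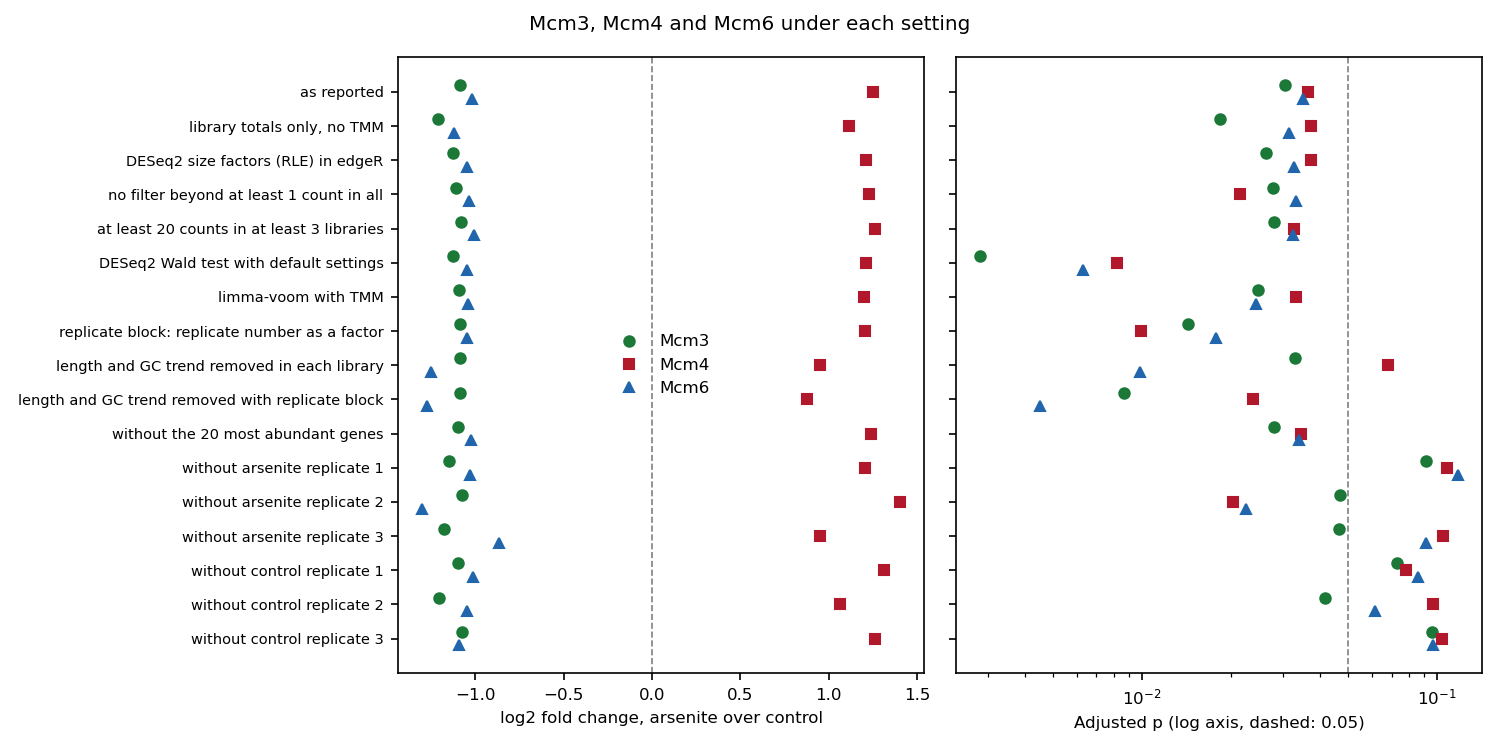
Log2 fold change (left) and adjusted p (right, log axis, dashed line at 0.05) of Mcm3, Mcm4 and Mcm6 as reported and under 16 alternatives. The fold changes keep their signs throughout, while most fits with a library left out move the adjusted p past 0.05.

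The remaining subunits did not pass. Mcm7, whose product forms the ring's core with Mcm4 and Mcm6, had 26.1, 28.2 and 41.3 CPM in the arsenite libraries, against 43.1, 56.3 and 60.5 CPM in the controls. The groups did not overlap but came close, and the log2 fold change was −0.74, with a 95% interval of −1.49 to 0.00 (edgeR adjusted p = 0.147, unadjusted p = 0.0499). Mcm2, which carries a histone-binding tail and forms with Mcm5 the gate through which DNA enters the ring, had 78.3, 73.2 and 111 CPM with arsenite and 105, 100.1 and 104 CPM in controls. Its groups overlapped through arsenite replicate 3, and the 95% interval of its log2 fold change was −0.87 to 0.40 (edgeR adjusted p = 0.603). Mcm5 had 78.3, 32.7 and 105.9 CPM with arsenite and 33.1, 58.1 and 47.9 CPM in controls. Its arsenite libraries spread on both sides of the controls, and the interval was −0.31 to 1.59 (edgeR adjusted p = 0.317). Mcm7 overlaps Ap4m1 and Cops6 on the opposite strand, and no strand setting for the counting is known, so its reads and theirs may not be told apart. Mcm7 also shares near-identical stretches with transcripts of Ap4m1 and the gene model Gm5487. The longest of these had 2157 bases, where the Mcm7 transcript has 2962. Gm5487 has no row in the table, so reads of shared stretches may have been counted for Mcm7 or lost.

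**Figure D3:**
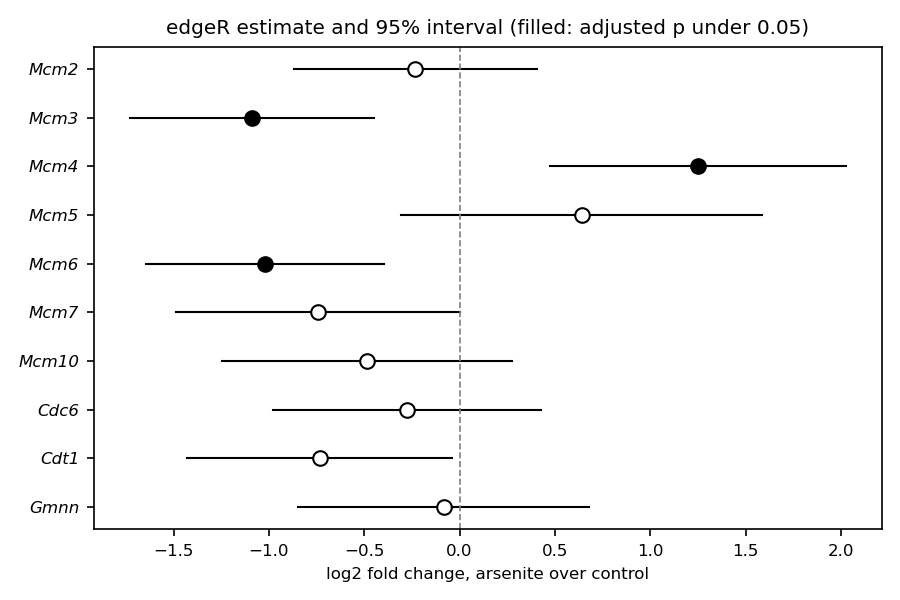
Log2 fold change of arsenite over control for the 10 genes with its 95% interval from edgeR; filled points have an adjusted p under 0.05. Mcm3 and Mcm6 lie near −1, Mcm4 lies above 1, and the intervals of Mcm2, Mcm5, Mcm10, Cdc6 and Gmnn span 0.

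Because the ring holds its subunits in equal number, their transcripts were also set against each other within each library, where the scaling between libraries cancels. Trends on transcript length and GC content that differ between libraries do not cancel there. The GC content was 45.5% for the Mcm4 transcript, 47.3% for Mcm6 and 52.5% for Mcm3. Mcm4 took 33.2%, 24.7% and 37.4% of all counts of the 6 subunits in arsenite replicates 1, 2 and 3 (95% Wilson intervals 31.8 to 34.7%, 23.4 to 26.1% and 36.1 to 38.8%). In control replicates 1, 2 and 3 it took 13.0%, 9.04% and 12.5% (12.2 to 13.9%, 8.32 to 9.82% and 11.7 to 13.4%). These intervals cover counting error only, since reads amplified by PCR are not independent molecules. Divided by transcript length, the ratio of Mcm4 to Mcm6 was 1.75, 0.84 and 3.03 with arsenite, against 0.381, 0.269 and 0.402 in controls. The ratio of Mcm4 to Mcm3 was 2.69, 2.01 and 3.40 with arsenite, against 0.599, 0.48 and 0.548 in controls. In contrast the ratio of Mcm6 to Mcm3 overlapped between the groups, at 1.54, 2.40 and 1.12 with arsenite and 1.57, 1.78 and 1.36 in controls. These ratios were chosen after the values were seen and are given as a description.

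**Figure D4:**
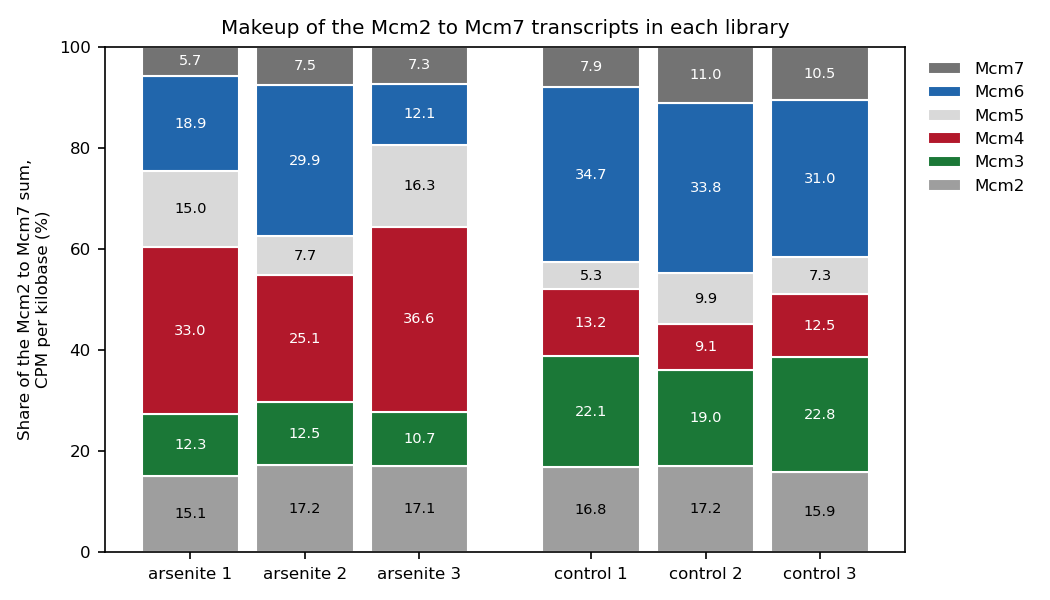
Share of each subunit in the summed CPM per kilobase of Mcm2 to Mcm7, in percent, for the 3 arsenite libraries and the 3 controls. Mcm4 takes 25.1 to 36.6% with arsenite and 9.11 to 13.2% in controls. Mcm3, Mcm6 and Mcm7 take smaller shares with arsenite than in controls, and Mcm2 takes about the same. The shares of Mcm5 overlap between the groups, with means of 13.0% with arsenite and 7.52% in controls.

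On that scale, CPM per kilobase of the longest protein-coding transcript, the controls had a fixed upper order. Mcm6 averaged 60.9 ± 2.78, Mcm3 39.2 ± 5.81 and Mcm2 30.5 ± 0.716 CPM per kilobase (SD, n = 3 each), with ranges that did not overlap. Mcm4, Mcm7 and Mcm5 followed at 21.4 ± 4.92, 18.0 ± 3.06 and 13.7 ± 3.71 (SD, n = 3 each), and their ranges overlapped. With arsenite Mcm4 averaged 50.9 ± 19.3, Mcm6 30.0 ± 7.29, Mcm2 26.0 ± 6.07, Mcm5 21.4 ± 10.9, Mcm3 18.4 ± 2.50 and Mcm7 10.8 ± 2.79 CPM per kilobase (SD, n = 3 each). Ranges of neighbours overlapped there down to Mcm3, and Mcm7 was lowest in each arsenite library. Mcm4 was first in arsenite replicates 1 and 3 and second to Mcm6 in replicate 2, whereas in the controls it ranked 4, 6 and 4. The summed level of the 6 subunits overlapped between the groups, at 154, 126 and 192 CPM per kilobase with arsenite and 184, 173 and 194 in controls. Where several transcripts of a gene are present, the length used shifts its level but not its ratio between libraries.

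Of the genes that act on the ring, Cdt1 and geminin form the switch that limits licensing. Cdt1 (chromosome 8, 122568015 to 122573554) had 40.6, 34.0 and 27.7 CPM in arsenite replicates 1, 2 and 3, against 54.3, 53.0 and 62.9 CPM in the controls. The groups did not overlap, yet the log2 fold change of −0.73 ± 0.31 (SE) did not pass (edgeR adjusted p = 0.127, unadjusted p = 0.0397). Cdt1 lies across the gene model Gm20388 on the same strand, which has no row among the counts. Reads of shared bases may have been counted for Cdt1 or lost. Groups failed to overlap for 5 of the 10 genes, Mcm3, Mcm4, Mcm6, Mcm7 and Cdt1, and for 41.6% of all tested genes. Gmnn (chromosome 13, 24751845 to 24761923), which had the highest level per length of the 10 genes in each library, had 946, 533 and 1323 CPM with arsenite, against 1054, 888 and 1026 CPM in controls. Its arsenite libraries lay on both sides of the controls, with an interval of −0.85 to 0.68 on the log2 scale (edgeR adjusted p = 0.889).

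Per kilobase, Gmnn exceeded Cdt1 by 45.3, 30.5 and 92.6 times in the arsenite libraries and by 37.7, 32.5 and 31.7 times in the controls. The arsenite range held the whole control range. Cdc6, the ATPase that acts with the origin recognition complex to load the ring, had 50.9, 54.5 and 89.9 CPM with arsenite, against 78.7, 73.8 and 84.0 CPM in controls, and its groups overlapped. Its interval was −0.98 to 0.43 on the log2 scale (edgeR adjusted p = 0.574). A stretch of 1527 bases of Cdc6, whose transcript has 4614, is near-identical to the gene model Gm9430. That model has no row among the counts, so reads of the stretch may have been counted for Cdc6 or lost. Mcm10 had 60.9, 30.8 and 38.4 CPM with arsenite, against 70.8, 56.8 and 54.6 CPM in controls, with an interval of −1.25 to 0.28 (edgeR adjusted p = 0.346).

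Other parts of the replication machinery were counted against the shares over all tested genes. These shares were 9.43% higher and 7.26% lower as reported, and 13.4% higher and 12.6% lower with the replicate block. They were 9.19% higher and 11.7% lower with length and GC trends removed, and 11.7% higher and 16.1% lower with both. Of the 6 subunits of the origin recognition complex, on which licensing starts, 1 rose and 0 fell, with a median log2 fold change of 0.11. Orc5 was the member that rose, with 355, 449 and 215 CPM in the arsenite libraries, against 109, 41.5 and 49.9 CPM in the controls. That is a log2 fold change of 2.34 ± 0.43 (SE; adjusted p = 0.00875 by edgeR), lost without control replicate 3 (edgeR adjusted p = 0.0542). Orc3 had the next smallest p, with 55.4 ± 10.2 CPM with arsenite and 35.7 ± 18.8 CPM in controls (SD, n = 3 each, edgeR adjusted p = 0.321).

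Among 23 tested partners of the ring and regulators of Cdt1 and geminin, 1 rose and 1 fell, against 9.43% and 7.26% of all tested genes, with a median of 0.02. Ccne2, a cyclin E that acts at S-phase entry, had 214, 181 and 148 CPM with arsenite, against 65.0, 32.5 and 58.5 CPM in controls, and rose by 1.80 ± 0.34 on the log2 scale (SE; adjusted p = 0.00952 by edgeR). Fbxo31, a ubiquitin ligase receptor that in human cells directs Cdt1 to degradation, had 4.20, 12.0 and 3.65 CPM with arsenite, against 42.7, 36.1 and 32.7 CPM in controls. It fell by 2.48 ± 0.51 on the log2 scale (SE; adjusted p = 0.0128 by edgeR). Ccne2 lost its call without control replicate 3 and Fbxo31 without arsenite replicate 1 (edgeR adjusted p = 0.0503 and 0.0608). Without arsenite replicate 2 the log2 fold change of Fbxo31 was −3.32. With the replicate block 3 of these 23 genes rose and 4 fell, against 13.4% and 12.6% of all tested genes. With length and GC trends removed 1 rose and 2 fell (9.19% and 11.7% of all), and with both 2 rose and 2 fell (11.7% and 16.1% of all).

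Of 18 origin-firing genes 0 rose and 1 fell, with a median of −0.47, where 7.26% of all tested genes fell. In the list 2 fell with the replicate block, 4 with length and GC trends removed and 7 with both, where 12.6%, 11.7% and 16.1% of all tested genes fell. Gins1, a subunit of the GINS complex of the active helicase, had 33.1, 21.8 and 48.3 CPM with arsenite, against 114, 94.1 and 117 CPM in controls. It fell by 1.66 ± 0.35 on the log2 scale (SE; adjusted p = 0.0139 by edgeR) and lost its call without arsenite replicate 1 or control replicate 3 (highest edgeR adjusted p = 0.0583). Its partner Gins3 averaged 45.6 ± 30.1 CPM with arsenite and 130.4 ± 22.1 CPM in controls (SD, n = 3 each, edgeR adjusted p = 0.0599). Gins3 passed in 7 of 16 alternatives, among them the block.

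Of 38 genes of the replication fork and of nucleotide supply, 2 rose and 2 fell, against 9.43% and 7.26% of all tested genes, with a median of −0.36. Rpa1, the large subunit of the protein that coats single-stranded DNA, rose, with an average of 31.5 ± 12.0 CPM with arsenite and 7.61 ± 4.18 CPM in controls (SD, n = 3 each, edgeR adjusted p = 0.0241). Dna2, a nuclease that trims Okazaki fragments, and the topoisomerase gene Top2a fell, and are named because of their values. Dna2 averaged 40.8 ± 2.16 CPM with arsenite and 81.5 ± 6.13 CPM in controls (SD, n = 3 each, edgeR adjusted p = 0.0388). Top2a averaged 151 ± 40.2 CPM with arsenite and 338 ± 70.1 CPM in controls (SD, n = 3 each, edgeR adjusted p = 0.0312). Top2a lost its call without arsenite replicate 1, control replicate 1 or control replicate 3, and Rpa1 without arsenite replicate 1, control replicate 1 or control replicate 2 (highest edgeR adjusted p = 0.093 and 0.114). Dna2 lost its call without any 1 of the 6 libraries (highest edgeR adjusted p = 0.117) and without a filter on low counts (edgeR adjusted p = 0.0517). With the replicate block 3 of the 38 rose and 6 fell (13.4% and 12.6% of all tested genes). With length and GC trends removed 2 rose and 8 fell (9.19% and 11.7% of all), and with both 4 rose and 11 fell (11.7% and 16.1% of all).

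Of 18 tested E2F and retinoblastoma-family regulators 1 rose and 0 fell, against 9.43% and 7.26% of all tested genes, with a median of 0.27. With the replicate block 3 rose and 0 fell (13.4% and 12.6% of all tested genes). With length and GC trends removed 1 rose and 3 fell (9.19% and 11.7% of all), and with both 4 rose and 3 fell (11.7% and 16.1% of all). E2f5, an E2F usually found in repressing complexes, had 799, 1205 and 1160.2 CPM in the arsenite libraries, against 280.0, 229 and 286 CPM in the controls. It rose by 1.99 ± 0.30 on the log2 scale (SE; adjusted p = 0.00497 by edgeR) and kept its call under all 16 alternatives. Rb1, the retinoblastoma gene, had 179 to 234 CPM with arsenite, against 80.0 to 135 CPM in controls (edgeR adjusted p = 0.0633). It passed in 3 of 16 alternatives, with the block (edgeR adjusted p = 0.0279), by DESeq2 (adjusted p = 0.033) and by limma-voom (adjusted p = 0.0466). It did not pass with length and GC trends removed, without or with the block (edgeR adjusted p = 0.155 and 0.11).

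**Figure D5:**
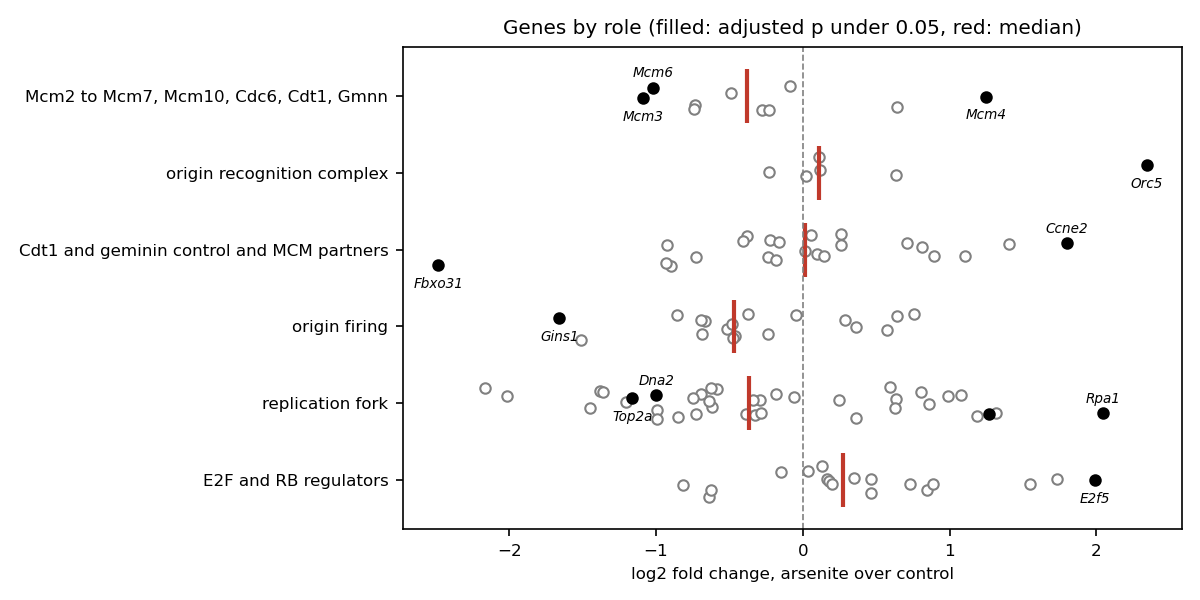
Log2 fold change of arsenite over control for each tested gene, by role in replication; filled points have an edgeR adjusted p under 0.05, names mark genes described in the text, and red bars are list medians. Medians run from −0.47 for origin firing to 0.27 for E2F and retinoblastoma-family regulators, and each list holds genes on both sides of 0.

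The genes whose profile over the 6 libraries was closest to the mean log2 CPM of Mcm2 to Mcm7 were Rbm8a, Ndufa7, Rplp2, Rps20 and Rps21, with Pearson r of 0.998, 0.998, 0.998, 0.997 and 0.997. They are the highest of 9007 genes scanned, over 6 points that share their libraries and depth, and this is a description only. That mean was lowest in arsenite replicate 2, at 5.97, and highest in control replicate 3, at 6.63. It averages Mcm4, which rose, with Mcm3 and Mcm6, which fell, so it need not follow any of them. Pearson r also does not compare the size of changes. Rps21, for example, had 8.10 CPM in arsenite replicate 2 and 115 CPM in control replicate 3. None of these 5 genes was called (edgeR adjusted p = 0.3 to 0.517), and their groups overlapped. With the replicate block Rplp2 and Rps20 passed (edgeR adjusted p = 0.0489 and 0.0432). With length and GC trends removed as well Rps20 and Rbm8a passed and Rplp2 did not (edgeR adjusted p = 0.0241, 0.0297 and 0.0551).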

How the data were processed

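The authors deposited a table of raw whole-number counts, with gene symbols as rows and the 6 libraries as columns. Per the submitters' processing notes the build was mm10 and the tools, whose roles are not named, were DESeq2 1.30.1, featureCounts 1.6.2, StringTie 2.1.4 and STAR. Annotation and strand setting: not given in the sources used here. Per the labels' protocols cDNA was preamplified, no molecular identifiers are mentioned, and kits of different makers are described, so coverage along transcripts may differ between genes.

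Of 18660 rows, 11 whose symbol had become a date were left out. Arsenite was compared with control in R 4.3.3 with edgeR 4.0.16 (quasi-likelihood F-test, two-sided, without covariates, after TMM scaling and filterByExpr with its default settings), which kept 12582 genes. CPM are scaled by TMM. Standard errors are the log2 fold change over the root of F. All p-values were adjusted over every gene tested, and all 10 members passed the filter. Alternatives used DESeq2 1.42.0, voom of limma 3.58.1, other scalings and filters, the replicate block, length and GC trends, no 20 most abundant genes, and each library left out. The edgeR, voom and DESeq2 tests were also run on simulated counts with known changes. Those counts held no replicate pairing and no length and GC trends, and the outcome is not given here.

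The members and lists were chosen with earlier results of these data known. Named genes are the 10 members, the 2 genes of each list with the smallest p, and the 5 genes most like the mean of Mcm2 to Mcm7, and 1 of these is not reported here. Positions, transcript lengths and overlaps come from GENCODE annotation of GRCm38, near-identical stretches from BLAST 2.17.0 and promoter windows from RefSeq on GRCm38.p6. Protein sequences were not used here. Every pair of libraries differed by more than sampling noise (the smallest chi-square was 34.6 per degree of freedom).

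Whether replicate numbers pair libraries was checked by correlating each library's departures from its group mean over genes. The correlations were 0.189, 0.221 and 0.178 between libraries sharing a number and −0.164 to −0.0238 between the rest. Departures cancel out within a group, so these correlations are not independent of each other. Libraries sharing a number were thus more alike, but the check does not settle whether the numbers pair the libraries. What the numbers stand for is not labelled. The reported values come from the fit without the block, and the block is an alternative.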

Additional observations from a re-analysis of the deposited data

How the results depend on the processing

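Over 16 alternatives, 145 of 160 values of the 10 genes kept their sign and side of the threshold, and 14 kept their sign but lost the call. Genes that were not called had no call to lose. All 14 losses fell on the called genes, with 3 of 16 for Mcm3, 6 of 16 for Mcm4 and 5 of 16 for Mcm6. When a library was left out, Mcm3 kept its call in 3 of 6 fits, and Mcm4 and Mcm6 in 1 of 6 each. The exception in sign was Gmnn, at a log2 fold change of 0.10 without arsenite replicate 2 (edgeR adjusted p = 0.848), in a range of −0.42 to 0.10 with each library left out. With each library left out in turn, the members that rose numbered 0 to 1 and those that fell 0 to 2, while all genes called numbered 217 to 930 higher and 180 to 1072 lower. With length and GC trends removed 0 members rose. Genes called lower numbered 1568 by DESeq2, 1586 with the replicate block, 1469 with those trends removed and 2023 with both the trends removed and the block, against 914 as reported. Genes called higher numbered 1706, 1682, 1156 and 1478 in the same order, against 1187 as reported. The cause of these shifts was not tested. The block changed no member's call, and of the named pathway genes it added Gins3 and Rb1. Rises were 56.5% of all calls, 46.5% with scaling by library totals and 44.0% with length and GC trends removed. Over all genes the median was −0.05 on the log2 scale with that first scaling and 0.07 as reported, and the 10 genes kept their signs. All 10 genes lay far above the floor of 3 counts.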
